A study of Citrus sinensis with 6 samples.

Results

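The genes described here encode the enzymes of proline, arginine and polyamine metabolism in the leaves of sweet orange (*Citrus sinensis*). A gene was a member if the deposited annotation placed it in the KEGG pathway of arginine and proline metabolism, or if it carried a function term for pyrroline-5-carboxylate synthetase, pyrroline-5-carboxylate reductase or proline dehydrogenase. Rows that also belonged to the glutathione or the ascorbate and aldarate pathway were left out. The rule found 56 rows, left out 17 of them and kept 39 of the 29875 listed genes, 36 by pathway alone and 3 by pathway and function term. The rule itself uses no expression value, but it was set with earlier results of these data known.

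Leaf RNA of tissue-cultured seedlings was sequenced, with 3 libraries from seedlings given 2% NaCl for 14 days and 3 libraries from control seedlings that received no NaCl, labelled as sterile water for 14 days. Both groups were the same species grown from seed in culture, and the study describes the libraries as biological replicates, each of several seedlings. The titles name leaf for the NaCl libraries and leaf blades for the control libraries, so the part of the leaf and the treatment cannot be told apart. A protocol field of the labels names a boron treatment instead. The groups follow the treatment labels and titles.

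Plants make proline from glutamate in the cytosol and plastid through delta1-pyrroline-5-carboxylate synthetase (P5CS) and pyrroline-5-carboxylate reductase (P5CR), and break it down in the mitochondrion through proline dehydrogenase (ProDH) and pyrroline-5-carboxylate dehydrogenase (P5CDH). Arginine is the other entry. Arginase and ornithine aminotransferase (OAT) turn it into pyrroline-5-carboxylate, while arginine decarboxylase (ADC) opens the route to putrescine, from which spermidine and spermine are built with aminopropyl groups supplied by S-adenosylmethionine decarboxylase (SAMDC). Proline is a compatible solute that many plants accumulate under salt, and polyamine oxidases release hydrogen peroxide when they oxidise polyamines.

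Recovered read totals were 17307079 to 19520980 in NaCl libraries and 14325408 to 17558452 in control libraries, so that 1 read in a transcript of 1 kb was worth 0.0512 to 0.0698 FPKM (fragments per kilobase of transcript, scaled to library size). Control replicate 2 lay apart from the other control libraries: on the first principal component of log2(FPKM + 1), with 53.7% of the variance, the NaCl libraries lay at 25.6, 51.7 and 49.99 and the control libraries at -51.6, -9.50 and -66.3. As genes of leaf tissue, photosynthesis genes were looked at, of which 45 of 50 were listed above 0 in at least 1 library. Of the antenna protein genes 15 of 17 were. Among all genes 23073 of 29875 were, so these counts alone cannot establish leaf identity. The summed level of the photosynthesis genes was 6977, 5145 and 7628 FPKM in NaCl libraries, against 6530, 3330 and 4246 FPKM in control libraries, lowest in control replicate 2, and its part in the results was not tested. In bulk RNA, fewer cells of a type and less RNA per cell cannot be told apart.

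Of the 32 members that passed a filter on low values, 1 met both thresholds of the test (adjusted p no higher than 0.05, log2 fold change no smaller than 1 in size). It encodes a polyamine oxidase (Cs_ont_7g028320) and was lower in NaCl leaves, at 3.42 ± 0.605 FPKM in NaCl libraries against 14.3 ± 3.57 FPKM in control libraries (SD, n = 3 each). OAT and P5CDH had higher means in NaCl leaves, and the genes of a pair of prolyl hydroxylases had lower means, each with groups that did not overlap but with an adjusted p above the threshold.

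Over all 17285 genes tested with limma, 472 (2.73%) met both thresholds, 169 (0.978%) of them higher in NaCl leaves and 303 (1.75%) lower. Under upper-quartile scaling the calls at both thresholds were 85 higher and 275 lower. This background itself depended on the libraries: with each left out in turn, between 0 and 1800 genes met both thresholds, 1800 of them without control replicate 2, and 7 did with a replicate block. At the adjusted p alone, with all libraries, 3.23% passed, and the same single member did. The single called gene was 3.12% of the tested members, which is close to that background. Groups did not overlap for 11 of 32 tested members (34.4%), against 36.1% of all tested genes. Of these 11, 7 were higher in NaCl leaves (21.9%, against 23.6% of all tested genes) and 4 were lower (12.5%, against 12.4%). The 7 include 1 low gene that passed the filter through its NaCl libraries alone, and 6 remain without it. At an adjusted p of at most 0.1 from limma there were 5 members (15.6%), against 15.4% of all tested genes. The median log2 fold change was 0.19 for the tested members and 0.18 for all tested genes. Of the members, 20 were above 0 (62.5%, against 64.7% of all tested genes) and 12 below. At an unadjusted p of at most 0.05, 7 members were higher and 3 lower, against 19.1% and 11.2% of all tested genes. The members' shares were thus close to those of all genes.

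**Figure D1:**
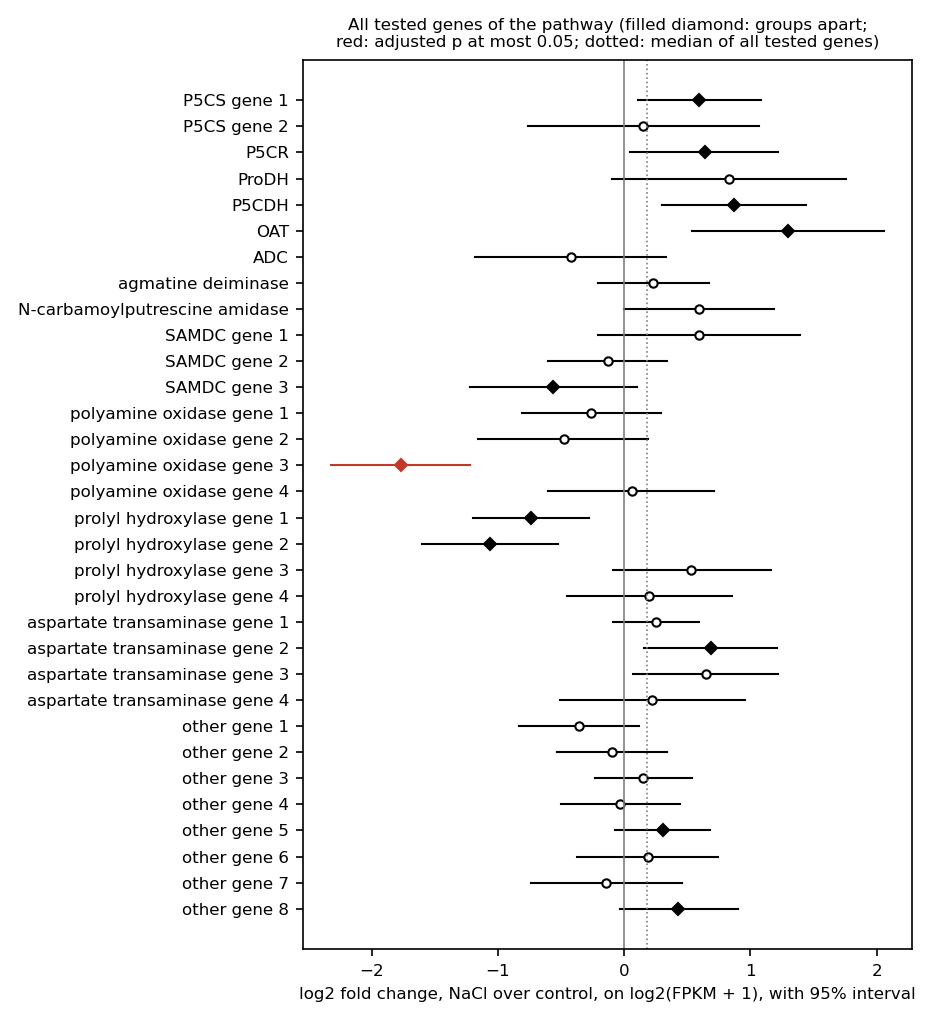
Log2 fold change of NaCl over control with its 95% interval (x axis, log2(FPKM + 1) scale) for each of the 32 tested genes (rows), where filled diamonds mark groups that do not overlap and open circles groups that do (other gene 8 passed the filter through its NaCl libraries alone). Values range from -1.77 for polyamine oxidase gene 3, the only gene in red (adjusted p = 0.0373), to 1.30 for OAT, and the dotted line is the median of all tested genes at 0.18.

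Genes that share an annotated activity are numbered by their mean level. The highest levels per length over the 6 libraries belonged to SAMDC genes 1 and 2, with means of 450.2 and 338 FPKM, followed by ADC at 290 FPKM, P5CDH at 241 FPKM and P5CS gene 1 at 217 FPKM. These neighbours overlapped in single libraries, since SAMDC gene 1 ranged from 302 to 830 FPKM and ADC from 178 to 383 FPKM. OAT followed at 56.8 FPKM, then prolyl hydroxylase gene 1 at 54.1 FPKM, aspartate transaminase gene 1 at 49.8 FPKM and ProDH at 49.6 FPKM. The difference between these last 4 was smaller than the spread of each over the libraries of a group, apart from aspartate transaminase gene 1, which varied little.

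P5CS catalyses the first committed step from glutamate to proline and was represented by 2 members of very unequal level. P5CS gene 1 carries the term for the glutamate-5-semialdehyde dehydrogenase activity, which is the second activity of the enzyme, and no term for the full synthetase. It was at 286, 231 and 265 FPKM in NaCl libraries and at 174, 208 and 140 FPKM in control libraries. Every NaCl library lay above every control library, with means of 261 ± 28.0 FPKM and 174 ± 33.9 FPKM (SD, n = 3 each). The log2 fold change was 0.59 (SE 0.21, 95% interval 0.11 to 1.08), and the adjusted p of 0.118 from limma did not pass. P5CS gene 2, which carries the synthetase term, was at 1.122, 1.49 and 0.557 FPKM in NaCl libraries and at 0.287, 2.17 and 0.461 FPKM in control libraries. Its groups overlapped and control replicate 2 was the highest of the 6 (log2 fold change 0.15, SE 0.38, adjusted p = 0.80 from limma).

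P5CR reduces pyrroline-5-carboxylate to proline, the last step of both routes. It was at 28.0, 30.7 and 27.0 FPKM in NaCl libraries and at 14.3, 27.0 and 15.0 FPKM in control libraries. The NaCl libraries were narrowly spread, and control replicate 2 came within 0.1 FPKM of the lowest of them while the other control libraries lay far below. The log2 fold change was 0.64 (SE 0.25, 95% interval 0.05 to 1.22, adjusted p = 0.144 from limma).

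OAT transfers the amino group of ornithine and so links arginine to proline. The OAT gene (Cs_ont_2g007270) was at 68.5, 92.2 and 78.6 FPKM in NaCl libraries, against 27.0, 52.6 and 22.1 FPKM in control libraries. All NaCl libraries were above all control libraries, and control replicate 2 was again the highest of its group. The ratio of the means was 2.35, from 79.8 ± 11.9 FPKM in NaCl and 33.9 ± 16.4 FPKM in control (SD, n = 3 each). The log2 fold change of 1.30 (SE 0.32, 95% interval 0.54 to 2.06) was the highest among the tested members and passed the fold threshold, but its adjusted p of 0.0671 from limma did not pass. OAT was 2.45, 3.002 and 2.91 times the level of P5CR in NaCl libraries, against 1.89, 1.95 and 1.47 times in control libraries. This ratio within a library did not overlap between groups. It reuses the OAT values, whose groups were already apart, and is no separate evidence. The single arginase gene, whose product cleaves arginine to ornithine and urea, was listed at 0 in all 6 libraries.

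ProDH opens proline breakdown in the mitochondrion. Its level was 38.9, 97.9 and 56.4 FPKM in NaCl libraries and 33.8, 48.2 and 22.7 FPKM in control libraries. NaCl replicate 2 was well above the other 5 libraries, and NaCl replicate 1 lay below control replicate 2, so the groups overlapped. The fold change of 0.83 on the log2 scale had an SE of 0.39 and an interval from -0.10 to 1.76 (adjusted p = 0.201 from limma).

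P5CDH oxidises the product of ProDH to glutamate and also clears pyrroline-5-carboxylate from OAT. The P5CDH gene (Cs_ont_5g047340) was at 274, 402 and 262 FPKM in NaCl libraries and at 168, 199 and 139 FPKM in control libraries, with no overlap. Its means were 312 ± 77.7 FPKM in NaCl and 169 ± 29.9 FPKM in control (SD, n = 3 each). The log2 fold change was 0.87 (SE 0.24, 95% interval 0.30 to 1.44), with an adjusted p of 0.0828 from limma.

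Synthesis and breakdown were also set side by side within each library. ProDH was 0.136, 0.424 and 0.212 times P5CS gene 1 in NaCl libraries and 0.194, 0.232 and 0.162 times in control libraries. This ratio overlapped between the groups, as did that of P5CDH to ProDH, at 7.04, 4.11 and 4.64 in NaCl libraries and 4.98, 4.13 and 6.14 in control libraries. A process term for the response to salt stress was carried by 5 members, P5CS gene 2, P5CR, P5CDH, OAT and ADC, counted over the 35 whose process terms were used. None of the 5 passed the adjusted p. Their groups did not overlap for P5CR, P5CDH and OAT, a separation in the higher direction that 23.6% of all tested genes also had, and 5 genes are too few to set against that share.

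**Figure D2:**
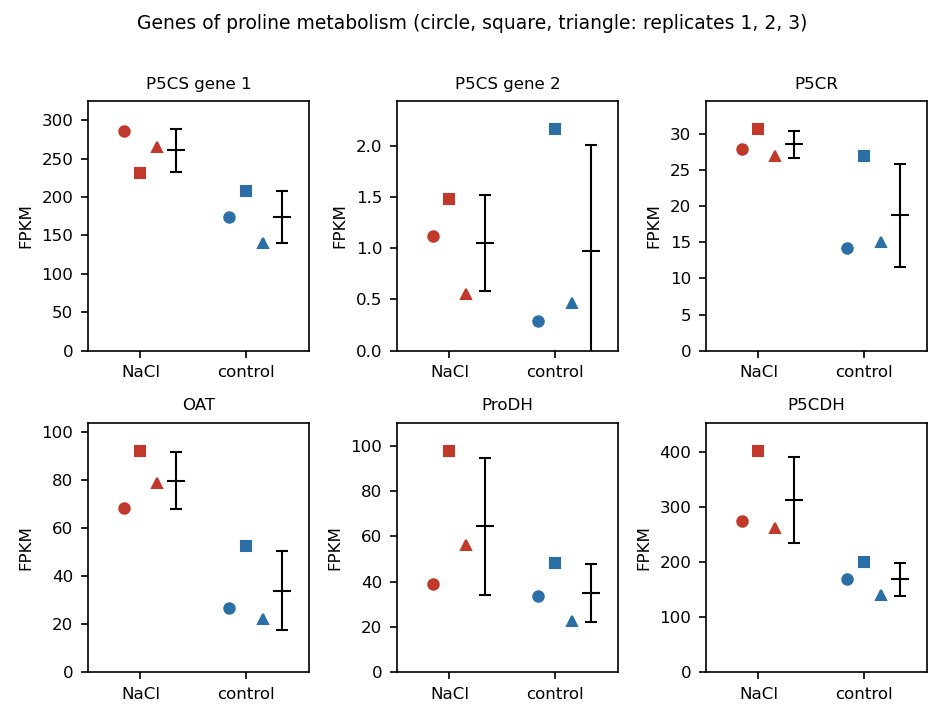
FPKM (y axis, from 0) of 6 proline genes in each NaCl library (red) and control library (blue), with circles, squares and triangles for replicates 1, 2 and 3 and bars for the mean ± SD. P5CS gene 1, P5CR, OAT and P5CDH have every NaCl library above every control library, with control replicate 2 the nearest of the control libraries, and P5CS gene 2 and ProDH overlap.

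The route from arginine to putrescine has 3 steps in plants, each represented by 1 member. ADC, which decarboxylates arginine to agmatine, was at 383, 178 and 203 FPKM in NaCl libraries and at 318, 285 and 371 FPKM in control libraries. NaCl replicate 1 was the highest of the 6 libraries and the other NaCl libraries were the lowest, so the NaCl group was split (log2 fold change -0.42, SE 0.32, 95% interval -1.18 to 0.33, adjusted p = 0.383 from limma). Agmatine deiminase, which forms N-carbamoylputrescine, was at 13.8, 14.7 and 13.5 FPKM in NaCl libraries and at 9.40, 14.9 and 11.7 FPKM in control libraries. The groups overlapped through control replicate 2 (log2 fold change 0.23, SE 0.19, adjusted p = 0.419 from limma). N-carbamoylputrescine amidase releases putrescine and was at 14.9, 12.6 and 13.2 FPKM in NaCl libraries and at 7.03, 13.0 and 6.97 FPKM in control libraries. Here, too, control replicate 2 lay among the NaCl libraries while the other control libraries were near 7 FPKM, and the log2 fold change was 0.59 (SE 0.25, 95% interval 0.00 to 1.19, adjusted p = 0.165 from limma). No member carried an ornithine decarboxylase term.

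SAMDC makes the aminopropyl donor for spermidine and spermine, and had 4 genes, of which 3 were tested and none passed. SAMDC gene 1 was at 429, 830 and 396 FPKM in NaCl libraries and at 326, 419 and 302 FPKM in control libraries. NaCl replicate 2 stood far above the other 5 libraries, and the difference was not larger than the spread (log2 fold change 0.59, SE 0.34, adjusted p = 0.269 from limma). SAMDC gene 2 was at 302, 374 and 294 FPKM in NaCl libraries and at 383, 355 and 319 FPKM in control libraries, which overlapped (log2 fold change -0.13, SE 0.20, adjusted p = 0.676 from limma). Gene 1 was 1.42, 2.22 and 1.35 times gene 2 in NaCl libraries and 0.850, 1.18 and 0.948 times in control libraries, so within a library gene 1 was the more abundant of the pair in each NaCl library and in control replicate 2. SAMDC gene 3 was at 10.2, 10.2 and 9.47 FPKM in NaCl libraries and at 11.3, 24.1 and 12.6 FPKM in control libraries. The groups did not overlap, but control replicate 2 carried most of the difference (log2 fold change -0.56, SE 0.28, 95% interval -1.22 to 0.10, adjusted p = 0.216 from limma). SAMDC gene 4 had 3, 0 and 1 reads in NaCl libraries and 1, 0 and 0 reads in control libraries and was not tested.

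Polyamine oxidases break down spermidine and spermine or convert them back to smaller polyamines. Polyamine oxidase gene 3, the called gene, fell in NaCl leaves. It was at 3.92, 3.58 and 2.75 FPKM in NaCl libraries, against 16.8, 10.2 and 15.8 FPKM in control libraries. The groups were far apart, and the lowest control library, replicate 2, was still well above every NaCl library. The ratio of the means was 0.240, and the log2 fold change was -1.77 (SE 0.23, 95% interval -2.32 to -1.22, adjusted p = 0.0373 from limma). Its unadjusted p was 0.000144. The exact two-sided permutation test gave p = 0.1, the smallest that 3 libraries against 3 allow, as it did for every member whose groups did not overlap. The call depended on which libraries were used. With each library left out in turn the log2 fold change stayed between -1.98 and -1.64, but the adjusted p was 0.0556, 0.0509 and 0.168 without NaCl replicate 1, 2 and 3, and 0.107, 0.013 and 0.131 without control replicate 1, 2 and 3. With the replicate number as a block the adjusted p was 0.0747, and with no filter on low values it was 0.0539.

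The 3 other polyamine oxidase genes did not pass the test. Gene 1 was at 29.4, 49.7 and 34.1 FPKM in NaCl libraries and at 36.6, 52.5 and 45.2 FPKM in control libraries. Gene 2 was at 32.8, 38.4 and 22.5 FPKM in NaCl libraries and at 43.9, 31.0 and 58.4 FPKM in control libraries. Both overlapped, with log2 fold changes of -0.26 (SE 0.23, adjusted p = 0.463) and -0.48 (SE 0.28, adjusted p = 0.283) from limma. Genes 1 and 2 carry a peroxisome term in the deposited annotation, while gene 3 carries no compartment term. Gene 4, annotated as a thermospermine oxidase, averaged 0.741 ± 0.208 FPKM in NaCl libraries and 0.723 ± 0.546 FPKM in control libraries (SD, n = 3 each), which is 0.06 on the log2 scale (limma adjusted p = 0.899). Gene 3 made up 5.86%, 3.89% and 4.56% of the summed polyamine oxidase FPKM in NaCl libraries, against 17.2%, 10.7% and 13.2% in control libraries. The shares did not overlap, which follows largely from the values of gene 3 itself. The summed level was 67.0, 92.2 and 60.2 FPKM in NaCl libraries and 97.9, 95.1 and 120 FPKM in control libraries. Without gene 3 the sum was 63.0, 88.6 and 57.5 FPKM in NaCl libraries and 81.1, 84.9 and 104 FPKM in control libraries. These overlapped through NaCl replicate 2, so the separation of the family sum depended on the called gene. The lower sum was not that of gene 3 alone. Genes 1 and 2 also had lower means in NaCl (37.7 against 44.8 FPKM and 31.2 against 44.4 FPKM), while gene 4 did not.

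**Figure D3:**
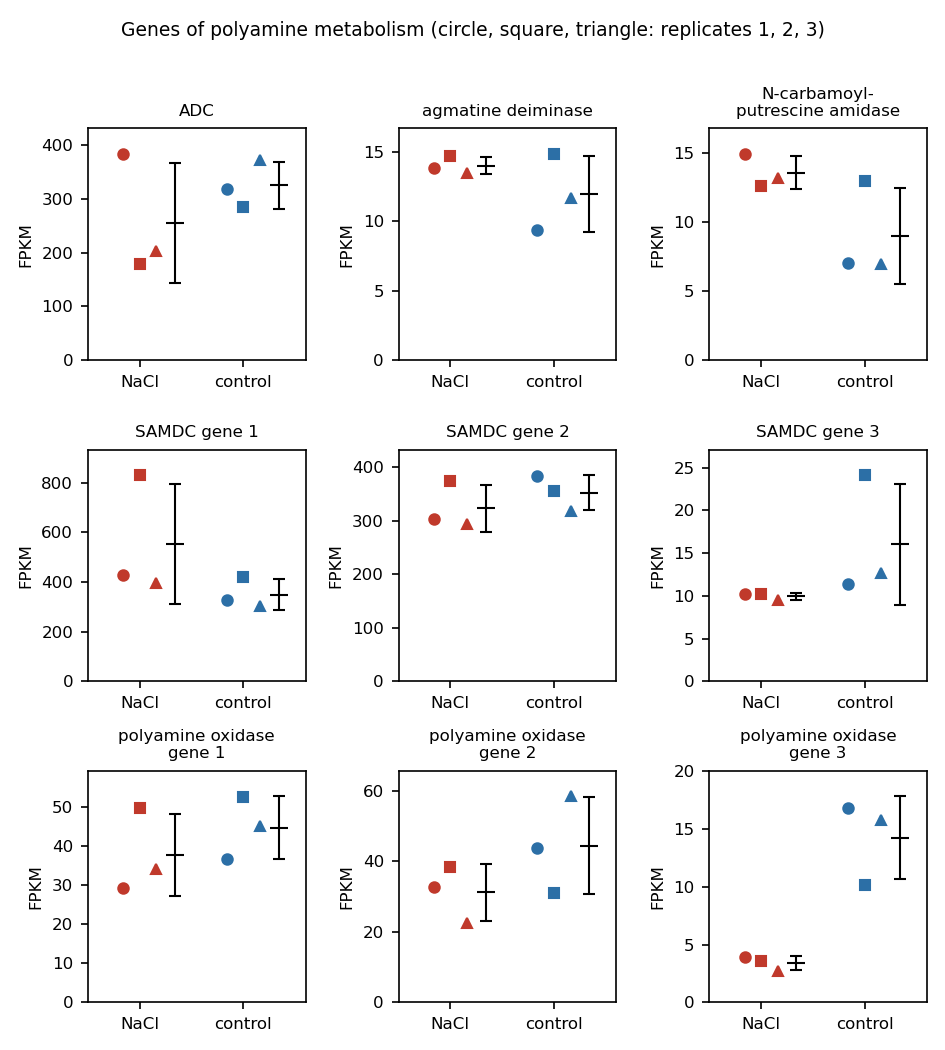
FPKM (y axis, from 0) of 9 genes of polyamine metabolism in each NaCl library (red) and control library (blue), with circles, squares and triangles for replicates 1, 2 and 3 and bars for the mean ± SD. Polyamine oxidase gene 3 has NaCl libraries between 2.75 and 3.92 FPKM, below all control libraries, SAMDC gene 3 is also separated, and the other 7 genes overlap.

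Prolyl 4-hydroxylases convert proline within proteins to hydroxyproline, in plants mainly in cell wall glycoproteins, and all 4 genes carry a Golgi or endoplasmic reticulum term. Prolyl hydroxylase gene 2 (Cs_ont_6g002050) was at 13.0, 21.9 and 14.8 FPKM in NaCl libraries, against 37.5, 28.5 and 39.0 FPKM in control libraries. The groups did not overlap, and the means were 16.5 ± 4.71 FPKM in NaCl and 35.0 ± 5.68 FPKM in control (SD, n = 3 each). Its log2 fold change was -1.06 (SE 0.23, 95% interval -1.60 to -0.52), past the fold threshold, but the adjusted p of 0.0555 from limma was just above its threshold. Gene 1, the most abundant, was at 36.0, 49.95 and 35.4 FPKM in NaCl libraries and at 70.0, 56.9 and 76.5 FPKM in control libraries. It was lower in every NaCl library than in any control library (log2 fold change -0.74, SE 0.19, 95% interval -1.20 to -0.28, adjusted p = 0.0746 from limma). In both genes NaCl replicate 2 was the highest NaCl library and control replicate 2 the lowest control library.

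The remaining prolyl hydroxylases had positive fold changes that did not pass. Gene 3 was at 15.99, 19.6 and 17.2 FPKM in NaCl libraries and at 9.08, 18.2 and 9.81 FPKM in control libraries, with control replicate 2 inside the NaCl range (log2 fold change 0.53, SE 0.26, adjusted p = 0.215 from limma). Gene 4 averaged 3.75 ± 0.820 FPKM in NaCl and 3.21 ± 1.18 FPKM in control (SD, n = 3 each), which is 0.20 on the log2 scale (limma adjusted p = 0.635). The summed level of the 4 genes was 67.9, 96.0 and 71.0 FPKM in NaCl libraries, against 119, 108 and 129 FPKM in control libraries, with no overlap, and was mostly made up of genes 1 and 2.

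Aspartate transaminases exchange the amino group between aspartate and glutamate, the precursor of proline, and belong to up to 10 pathways in the annotation. All 4 tested genes had positive fold changes, of which none passed the test. A positive fold change was found in 64.7% of all tested genes, and 4 genes are too few to set against that share. Gene 2 was at 52.5, 54.5 and 52.99 FPKM in NaCl libraries and at 28.7, 46.2 and 26.3 FPKM in control libraries. The NaCl libraries were nearly equal and lay above all control libraries (log2 fold change 0.69, SE 0.22, adjusted p = 0.104 from limma). Gene 3 was at 36.5, 43.6 and 31.8 FPKM in NaCl libraries and at 21.0, 32.8 and 18.3 FPKM in control libraries, overlapping through control replicate 2 (log2 fold change 0.65, SE 0.24, adjusted p = 0.133 from limma). Gene 1 was at 59.8, 49.7 and 52.9 FPKM in NaCl libraries and at 49.8, 45.3 and 41.1 FPKM in control libraries, with log2 fold change 0.25 (SE 0.14, adjusted p = 0.27 from limma). Gene 4 overlapped as well, at 22.4 ± 4.89 FPKM in NaCl and 19.8 ± 8.16 FPKM in control (SD, n = 3 each), which is 0.22 on the log2 scale (limma adjusted p = 0.636). Gene 5 had 5, 0 and 11 reads in NaCl libraries and 22, 15 and 7 reads in control libraries and was below the filter.

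**Figure D4:**
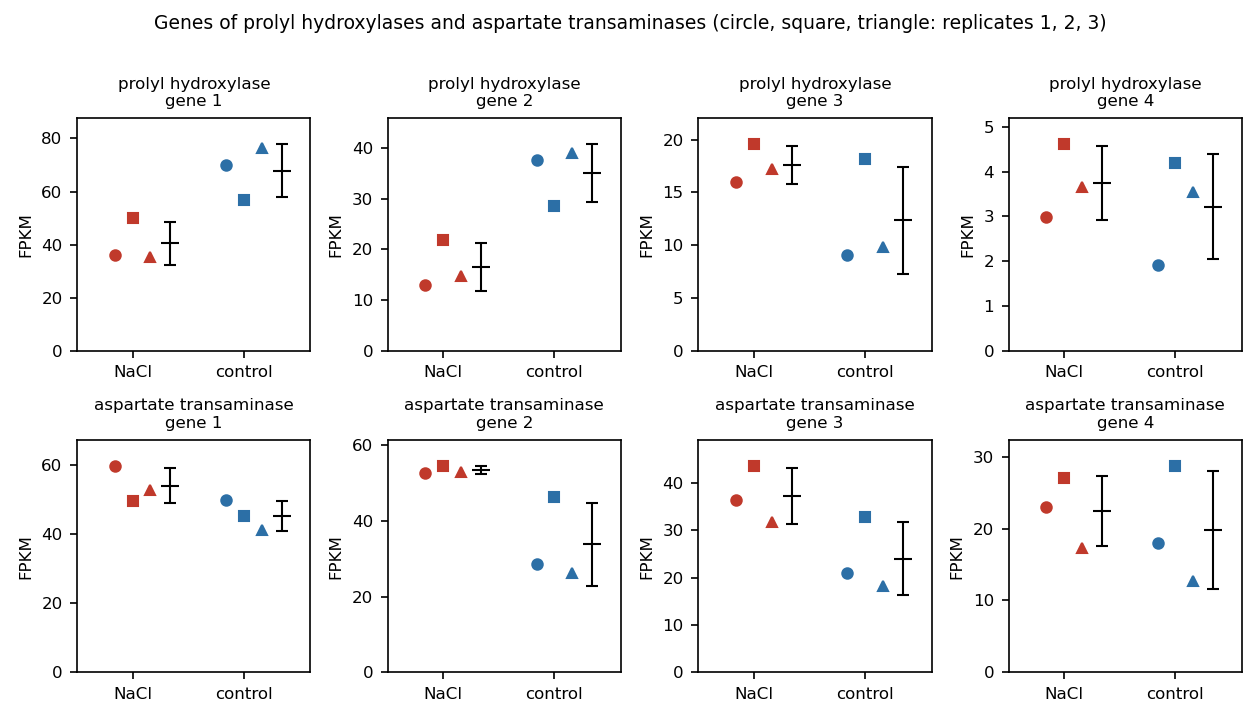
FPKM (y axis, from 0) of 4 prolyl hydroxylase genes (upper row) and 4 aspartate transaminase genes (lower row) in each NaCl library (red) and control library (blue), with circles, squares and triangles for replicates 1, 2 and 3 and bars for the mean ± SD. Prolyl hydroxylase genes 1 and 2 have every NaCl library below every control library, and aspartate transaminase gene 2 has NaCl libraries of 52.5 to 54.5 FPKM above control libraries of 26.3 to 46.2 FPKM.

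The other 12 members carry no function term that names one of these enzymes, and 8 of them passed the filter. The most abundant of them was at 27.5, 35.8 and 21.6 FPKM in NaCl libraries and at 39.3, 33.4 and 34.9 FPKM in control libraries, and its groups overlapped (log2 fold change -0.36, SE 0.20, adjusted p = 0.261 from limma). Among the tested 8, log2 fold changes ran from -0.36 to 0.43, and 2 had higher levels in every NaCl library than in any control library. Such a separation was also found in 23.6% of all tested genes, and 8 genes are too few to set against that share. The first of the 2 was at 8.49 ± 0.628 FPKM in NaCl against 6.69 ± 0.743 FPKM in control (SD, n = 3 each, limma adjusted p = 0.229). It stands in the row of the listing after aspartate transaminase gene 2 and is annotated to the same 10 pathways. The second was at 0.860, 0.636 and 0.762 FPKM in NaCl libraries and at 0.305, 0.480 and 0.125 FPKM in control libraries, so it passed the filter through the NaCl group alone. It was in the fit, gave the upper end of 0.43 and is in the counts of tested members. Its separation partly follows from the filter, and nothing is read from it. The second of them is 1 of 4 members in consecutive rows of the listing that share the phenylalanine and tryptophan pathways, of which 2 carry a term for hydrolases of linear amides. In the same run of rows, a member below the filter had 11, 14 and 11 reads in NaCl libraries and 2, 4 and 0 reads in control libraries. How reads were shared between such neighbouring genes was not tested.

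Of the 7 members below the filter of 0.5 FPKM in 3 libraries, 2 were listed at 0 in every library, the arginase gene and 1 gene without a function term. A further gene without a function term, annotated like the polyamine oxidases to beta-alanine metabolism, had 0 reads in each NaCl library and 0, 18 and 1 reads in control libraries, so control replicate 2 held nearly all of them. The filter needs 3 libraries at 0.5 FPKM, and 1 tested member, the low gene described above, passed through the NaCl group alone, while 0 passed through the control group alone.

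Among the control libraries, replicate 2 was often the closest to the NaCl libraries. It was the one nearest to the NaCl mean in 21 of 32 tested members, against 57.5% of all tested genes, and in 10 of the 11 members whose groups did not overlap, against 68.5% of all genes whose groups did not overlap. With 11 members, nothing particular to them is read from this. Without it, 8 members were higher and 3 lower at the adjusted p, while 16.5% of the tested genes as a whole were higher and 7.89% lower. Both thresholds were then met by 1 member above and 2 below control, against 5.3% and 5.11% of all tested genes. OAT then passed both thresholds (1.66 on the log2 scale, limma adjusted p = 0.0141), as did prolyl hydroxylase gene 2 (-1.20, adjusted p = 0.026) and polyamine oxidase gene 3 (-1.98, adjusted p = 0.013). P5CR stood at 0.91 on the log2 scale (adjusted p = 0.0161), N-carbamoylputrescine amidase 0.86 (adjusted p = 0.019), aspartate transaminase gene 2 0.93 (adjusted p = 0.0144) and P5CS gene 1 0.73 (adjusted p = 0.0407), all from limma and under the fold threshold. The other 4 that passed the adjusted p were P5CDH, aspartate transaminase gene 3 and prolyl hydroxylase gene 3, which were higher in NaCl leaves, and prolyl hydroxylase gene 1, which was lower. Leaving out the control library most often nearest the NaCl mean favours such calls. With any other single library left out, the adjusted p from limma was 0.109 to 0.227 for OAT and 0.0509 to 0.214 for prolyl hydroxylase gene 2. It was 0.0509 to 0.168 for polyamine oxidase gene 3 and 0.235 to 0.371 for P5CR. Without NaCl replicate 2, the highest NaCl library in 19 of 32 tested members against 31.9% of all tested genes, OAT was at 1.19 and ProDH at 0.48 on the log2 scale.

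**Figure D5:**
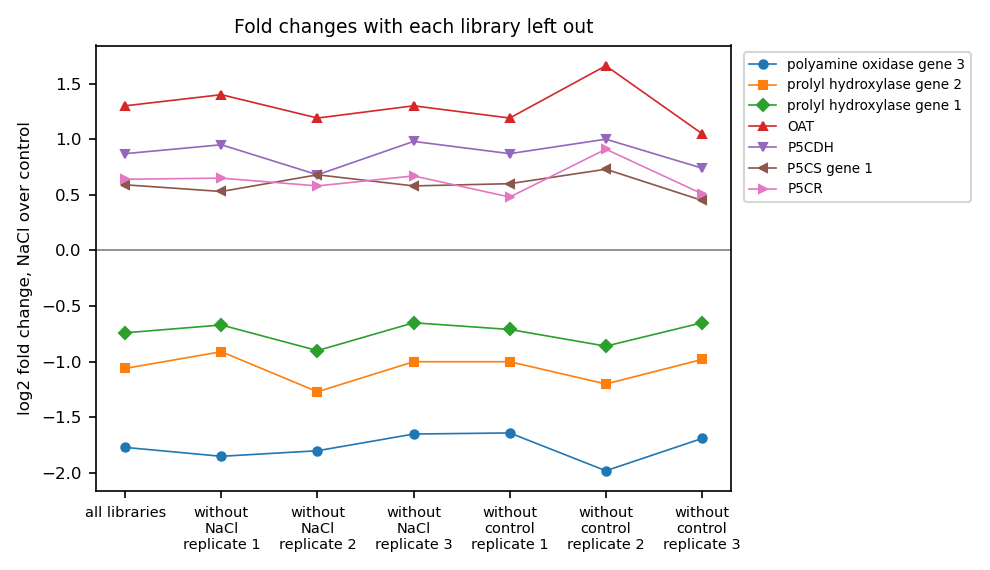
Log2 fold change of NaCl over control (y axis) for 7 genes, with all libraries and with each library left out in turn (x axis). Each line keeps its sign, OAT runs from 1.05 to 1.66 and polyamine oxidase gene 3 from -1.98 to -1.64, and both lie farthest from 0 without control replicate 2.

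Genes around the pathway that are not members were described in the same way. Of 20 tested genes of arginine biosynthesis, none met both thresholds, and their median log2 fold change was 0.32. The 17 rows left out by the rule include aldehyde dehydrogenases and 1 spermidine synthase. Of the 12 tested, none was called and the median was 0.48. In 4 of them every NaCl library was above every control library, a separation that 23.6% of all tested genes also had. The 12 genes are too few to set against that share. The spermidine synthase gene, which adds an aminopropyl group to putrescine, was at 17.1, 20.8 and 14.6 FPKM in NaCl libraries and at 11.8, 15.0 and 9.16 FPKM in control libraries, which overlapped (log2 fold change 0.52, SE 0.22, adjusted p = 0.165 from limma). The list of such synthases held 3 tested genes, with a median of -0.66 and none called. The others, annotated as thermospermine synthases, were low and had lower means in NaCl libraries, but neither passed. Their log2 fold changes were -0.66 (SE 0.24, adjusted p = 0.128) and -0.82 (SE 0.52, adjusted p = 0.31) from limma. The groups of the former did not overlap, a lower separation that 12.4% of all tested genes also had. It was at 0.899, 0.179 and 0.380 FPKM in NaCl libraries and at 1.13, 1.57 and 1.21 FPKM in control libraries. The control libraries alone were enough for the filter, so its separation partly follows from that. The latter was at 3.84, 0.172 and 2.82 FPKM in NaCl libraries and at 3.22, 4.47 and 4.22 FPKM in control libraries, which overlapped. Of 44 tested amino acid transporter genes, 0 were called higher and 2 lower, with a median of 0.26. Among 37 tested genes of alanine, aspartate and glutamate metabolism 1 was called higher and 0 lower (median 0.41), and among 78 of cysteine and methionine metabolism 2 were called higher and 0 lower (median 0.31). For comparison, the median over all tested genes was 0.18, and 0.978% of them were called higher and 1.75% lower.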

How the data were processed

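The authors deposited 1 table of FPKM per gene and library, made from leaf RNA-seq; the study's methods name HISAT2 alignment and featureCounts, and the submitters' notes name HISAT2 and HTSeq. Their mean, fold change, p-value and call columns were not used. FPKM is not a count, so log2(FPKM + 1) was fitted with limma 3.58.1 (R 4.3.3, trended variance, no covariate) for the 17285 of 29875 genes that reached 0.5 FPKM in 3 or more libraries. Fold changes are on that scale, which understates changes of low genes. The Benjamini-Hochberg adjustment covered all tested genes. Whole reads were recovered from the FPKM steps for 100% of the 23073 genes above 0 (tolerance 0.0001 reads) and used for depth and for limma with voom weights. Named genes were every member called or with an adjusted p of at most 0.1, and the most abundant member of each enzyme role. Members, lists and tests were chosen with earlier results of these data known. Other members were then described from their values. The identifiers matched 0 entries of the RefSeq gene table, so at most 2 higher and 2 lower ones are printed, without coordinates or sequences. Process terms of 4 members were not used here. Python 3.11.15 with pandas 2.3.3 read the table. The test was checked on simulated data with planted changes on the log2 scale. It called 59 of 100 genes changed by 1.5, 90 of 100 changed by 3 and 5 of 17085 unchanged genes. Changes of such sizes can thus be missed. The simulated noise was independent between genes, with no effect shared within a library, and changes were planted only in genes above a minimum mean level. The real libraries differ in this, as control replicate 2 lay apart, so these rates need not hold for them.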

Additional observations from a re-analysis of the deposited data

How the results depend on the processing

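The alternatives were each library left out, a replicate block, no filter on low values, a filter of 1 FPKM, pseudocounts of 0.1 and 0.01, quantile normalization, upper-quartile scaling, the robust option, voom weights on recovered reads, and the adjusted p alone. The number of called members, 1 with all libraries, was 0 with no filter and 0 with the replicate block, and ranged from 0 to 3 with single libraries left out. Of all tested genes, 472 were called, against 40 with no filter, 308 with a pseudocount of 0.01 and 7 with the replicate block, and from 0 to 1800 with single libraries left out (0 without control replicate 3, 2 without control replicate 1, 1800 without control replicate 2, and 100, 120 and 5 without NaCl replicate 1, 2 and 3). Without control replicate 3, 3084 genes had an unadjusted p of at most 0.05. Same-numbered libraries did not deviate together (correlations -0.03, 0.03 and -0.07), so the numbers were not taken as pairs. Every tested member chosen by the naming rule kept its sign in each alternative run, though agmatine deiminase came to 0.03 under quantile normalization. The arginase gene was named but not tested and has no fold change. Members named by their adjusted p were chosen from the same data, so their kept sign is no separate evidence. The median of all genes was 0.08 under quantile normalization and upper-quartile scaling, against 0.18 as deposited, and 1 member without a named enzyme role changed sign under quantile normalization. Changes of sign with a library left out occurred in members with fold changes near 0: P5CS gene 2, polyamine oxidase gene 4, prolyl hydroxylase gene 4, aspartate transaminase gene 4 and 3 members without a named enzyme role. The cause of these differences was not tested.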
